A study of Rattus norvegicus with 6 samples.

Results

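The genes examined here encode enzymes that make retinoic acid (*Adh1*, *Aldh1a1*, *Aldh1a2* and *Aldh1a3*), proteins that bind it in the cytoplasm (*Crabp1* and *Crabp2*), nuclear receptors that respond to it (*Rara* and *Rarb*) and an enzyme that degrades it (*Cyp26b1*). These 9 genes were chosen by symbol, with their values in these libraries known, and all 9 were found among the 17337 gene names of the RNA-seq tables. Their levels and their differences between replicates are therefore given as a description, with no test. RNA-seq of polyA-selected RNA was done on untreated neural progenitors, cultured from cortices of Sprague Dawley rats at embryonic day 14. The cells grew with bFGF and EGF and were collected after a second passage, and the embryos were of either sex. The 2 biological replicates are called A and B, with libraries A1 and A2 of the first and B1 and B2 of the second, as the sample names group them. What separates the 2 libraries of a replicate was not given in the sources used here, and B1 and B2 lay further apart than A1 and A2. How many animals gave each replicate was not given in the sources used here. The 2 Start-seq samples of the series were not analysed here.

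Retinoic acid is made from vitamin A in separate oxidation steps. Alcohol or retinol dehydrogenases turn retinol into retinal, and retinal dehydrogenases of the Aldh1a family turn retinal into retinoic acid, a step that cannot be reversed. Crabp proteins carry retinoic acid within the cell, Rar receptors bind DNA as partners of Rxr receptors, and Cyp26 enzymes clear the ligand. In the developing forebrain the meninges, which cover the cortex, are a well known source of retinoic acid through *Aldh1a2*.

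Levels are given as FPKM, which divides the fragments of a gene by its length and by the size of the library, so that they can be set side by side between genes. The coverage that corresponds to 1 FPKM, which grows with the amount of sequence, was between 22.7 and 24.4 in A1, A2 and B1 and was 6.83 in B2. A gene of the same FPKM thus rests on fewer reads in B2. Of 10 listed markers of neural progenitors, 9 were found and all of these had a mean of at least 1 FPKM, led by *Fabp7* and *Vim*. Of these 9 markers, *Fabp7* and *Hes5* were counted as lower in B by the criteria given further on, and none as higher. Without *Fabp7*, which was 16800 and 18557 FPKM in A1 and A2 and 6520 and 5485 in B1 and B2, the other 8 summed to 4152 and 4491 FPKM in A1 and A2 and to 3536 and 5328 FPKM in B1 and B2. Most of this sum was *Vim*, with 2882 and 3171 FPKM in A1 and A2 and 2652 and 4458 in B1 and B2. *Sox2* and *Hes5*, the next by mean, were lower in both libraries of B, while 4 of the 8 were higher in B by the mean. All 16 genes of a list of meningeal and mesenchymal markers also had a mean of at least 1 FPKM, and none was at 0 in any library. All 6 endothelial and all 6 microglial markers had a mean below 1 FPKM.

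All 9 retinoic acid genes had a mean of at least 1 FPKM, where 60.5% of all gene names did. By the mean of replicates A and B the order was *Crabp2*, *Aldh1a2*, *Crabp1*, *Rara*, *Adh1*, *Aldh1a1*, *Rarb*, *Cyp26b1* and *Aldh1a3*. *Adh1* and *Aldh1a3* reached this limit through replicate B, and 7 of the 9 genes did in every library and 8 without B2. *Crabp2* had 193 ± 123 FPKM (SD, n = 2 biological replicates, as for all means here), above 97.1% of the gene names, and 121 FPKM without B2. *Aldh1a3* had 1.49 ± 1.56 FPKM, above 42.4% of the gene names, and 0.869 FPKM without B2. The step from *Rara* to *Adh1*, with 9.25 ± 12.4 FPKM, was larger than the SD of either gene. Every other step between neighbours in this order was smaller than the SD of at least 1 of the neighbours. This SD holds the difference between replicates, which genes of the same libraries may share, so it cannot decide whether neighbours differ. Within each library *Crabp2* was above *Aldh1a2* and *Crabp1* was above *Rara*. The other neighbours with such a step changed their order in at least 1 library. *Rara* was the fourth gene in every library, and *Crabp2*, *Aldh1a2* and *Crabp1* held the first 3 places in every library.

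**Figure D1:**
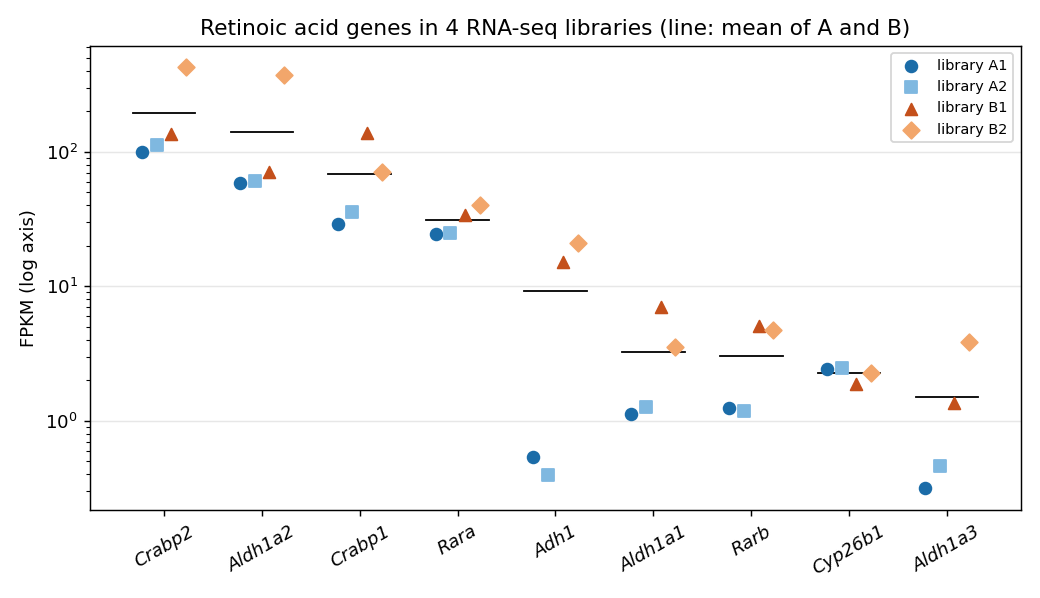
FPKM on a log axis of the 9 retinoic acid genes in the 4 RNA-seq libraries, ordered by the mean of replicates A and B, which is drawn as a line. A1 and A2 lie close together for each gene, while B2 stands above the other libraries for *Aldh1a2* (369 FPKM) and *Crabp2* (426 FPKM).

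The sequences around the annotated starts are shown next, to be read beside the values that follow. RefSeq promoters of the GRCr8 build, a later assembly than the rn6 of the tables, run from 250 bases before to 50 bases after the start. All 9 genes matched, *Adh1* through its older symbol. Their promoters ranged from poor to rich in CG pairs. *Aldh1a2* had 47 CG pairs in the 300 bases, more than 98.7% of 33469 promoters. *Aldh1a1* had 1 CG pair, *Adh1* 3, *Cyp26b1* 12, *Crabp2* 14, *Rarb* 21, *Crabp1* 26, *Aldh1a3* 31 and *Rara* 32, where the median of all promoters was 7. The hexamer GGGCGG was present on either strand in 5 of the 9 promoters and in 33.1% of all promoters. The 120 bases before the start are shown for *Aldh1a2* (chr8:80758521-80758640, plus strand), *Crabp2* (chr2:175714742-175714861, plus strand), *Crabp1* (chr8:64047311-64047430, plus strand), *Aldh1a1* (chr1:227537500-227537619, plus strand) and *Adh1* (chr2:229470583-229470702, plus strand) to let this range be seen, 5′ to 3′ with CG pairs in capitals.
Aldh1a2: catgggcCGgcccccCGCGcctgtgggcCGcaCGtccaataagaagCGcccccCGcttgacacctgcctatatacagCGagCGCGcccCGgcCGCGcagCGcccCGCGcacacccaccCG
Crabp2: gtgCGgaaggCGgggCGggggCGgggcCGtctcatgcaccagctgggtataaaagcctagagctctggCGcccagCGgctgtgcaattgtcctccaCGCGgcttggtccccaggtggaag
Crabp1: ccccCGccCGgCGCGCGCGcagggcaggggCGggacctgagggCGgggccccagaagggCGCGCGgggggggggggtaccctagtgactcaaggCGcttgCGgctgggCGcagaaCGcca
Aldh1a1: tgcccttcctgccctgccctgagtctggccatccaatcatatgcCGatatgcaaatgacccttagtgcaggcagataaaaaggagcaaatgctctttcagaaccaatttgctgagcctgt
Adh1: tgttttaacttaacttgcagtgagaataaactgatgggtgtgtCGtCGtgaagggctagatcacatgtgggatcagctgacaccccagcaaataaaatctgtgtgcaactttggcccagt

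Rar and Rxr receptors bind pairs of short half-sites that point the same way. Pairs of the half-site AGGTCA and of its variants, which were AGTTCA, then GGGTCA, and lastly GGTTCA, spaced by 1, 2 or 5 bases, were searched on both strands of the 300 bases. Such a pair was present in 0.777% of all promoters, and a pair spaced by 5 bases in 0.382%. Among the 9 genes it was present in *Rarb* alone, and among 35 other pathway genes that matched a promoter in *Cyp26a1* alone, each spaced by 5 bases. The 30 bases around each pair are shown because both genes are known targets of retinoic acid, with the half-sites in capitals. The pair of *Rarb* lies on the strand of the gene 25 to 41 bases after the start (chr15:11336410-11336439, plus strand), and that of *Cyp26a1* on the opposite strand 92 to 76 bases before it (chr1:244883724-244883753, plus strand), so that its half-sites read as their reverse complement.
Rarb: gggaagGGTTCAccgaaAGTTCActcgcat
Cyp26a1: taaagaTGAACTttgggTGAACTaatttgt
A match describes these letters only, and binding at these sites was not measured. The positions count from RefSeq starts, which were not checked here against measured starts. The study reports that many rn6 RefSeq starts differ from those measured in these cells.

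*Aldh1a2*, the retinal dehydrogenase best known from mesenchyme and meninges, spans 77640234 to 77719488 of chromosome 8 in rn6, plus strand. It had 58.3 FPKM (A1), 60.2 (A2), 71.2 (B1) and 369 (B2). A1, A2 and B1 were close to each other, and B2 alone was high. The mean was 140 ± 114 FPKM (SD, n = 2), and without B2 it was 65.2 FPKM. This gene also had the most CG pairs among the 9 promoters.

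*Aldh1a1*, another retinal dehydrogenase, spans 238222689 to 238264381 on the plus strand of chromosome 1. Its FPKM was 1.13 (A1), 1.27 (A2), 7.01 (B1) and 3.51 (B2). Here B1 was the highest library, and both libraries of B were above both of A. *Aldh1a3*, the third enzyme of the family, lies on the minus strand of the same chromosome from 127302920 to 127337828. Its values were 0.314 FPKM (A1), 0.465 (A2), 1.35 (B1) and 3.85 (B2), with a coverage of 7.64 to 32.9. This was the lowest of the 9 genes by the mean, and B2 was its highest library.

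Within the Aldh1a family nearly all of the signal came from *Aldh1a2*. It gave 97.6% (A1), 97.2% (A2), 89.5% (B1) and 98.0% (B2) of the summed FPKM of *Aldh1a1*, *Aldh1a2* and *Aldh1a3*. The mean share was 95.6% ± 2.56 (SD, n = 2). *Aldh1a1* gave 8.81% in B1 and between 0.934% and 2.05% in the other libraries, so the lower share of *Aldh1a2* in B1 went with the highest level of *Aldh1a1*.

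*Adh1* encodes a cytosolic alcohol dehydrogenase that accepts retinol. It spans 243550655 to 243562243 on the plus strand of chromosome 2. Its FPKM was 0.534 (A1), 0.394 (A2), 15.1 (B1) and 21.0 (B2). Both libraries of B lay far above both of A, and the replicate mean was 38.9 times higher in B. The coverage was 13.0 and 8.95 in A1 and A2 and 367 and 144 in B1 and B2, so the gene was covered in each library.

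*Crabp1* and *Crabp2* are small cytoplasmic proteins that bind retinoic acid. *Crabp1* spans 59344097 to 59352135 of chromosome 8, plus strand, and had 29.1 FPKM (A1), 35.8 (A2), 139 (B1) and 70.1 (B2). B1 was the highest library of *Crabp1*. *Crabp2*, which spans 187322416 to 187326762 of chromosome 2, plus strand, had 100.2 FPKM (A1), 112 (A2), 135 (B1) and 426 (B2). B2 was the highest library of *Crabp2*, and its B1 was closer to the libraries of A than to B2.

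The balance of these 2 binding proteins differed between libraries. *Crabp2* was 3.45 times the FPKM of *Crabp1* in A1 and 3.13 times in A2. In B1 the ratio was 0.975, and in B2 it was 6.08. The 2 libraries of replicate B thus lay on either side of replicate A.

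**Figure D2:**
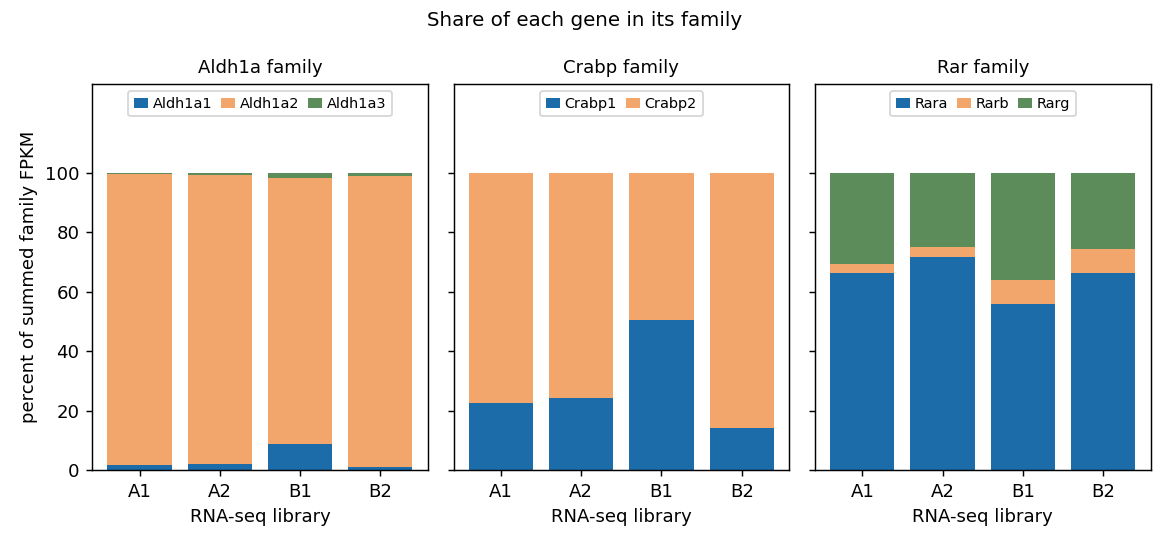
Percent of the summed FPKM of a family that each gene gave in the 4 RNA-seq libraries, for the Aldh1a, Crabp and Rar families. *Aldh1a2* gave between 89.5% and 98.0% of its family, while the share of *Crabp1* in its own was 14.1% in B2 and 50.6% in B1.

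*Rara*, a retinoic acid receptor found in most tissues, spans 86870530 to 86883434 of chromosome 10, plus strand. It had 24.6 FPKM (A1), 25.0 (A2), 33.9 (B1) and 40.3 (B2), a mean of 30.9 ± 8.72 (SD, n = 2). It was higher in both libraries of B, with replicate means of 24.8 FPKM in A and 37.1 FPKM in B. *Rarb*, a receptor gene that is itself a classic target of retinoic acid, spans 10120206 to 10262598 of chromosome 15, plus strand. Its FPKM was 1.24 (A1), 1.18 (A2), 5.03 (B1) and 4.76 (B2). For *Rarb* the libraries of a replicate were close to each other in A and in B, and the replicate mean was 4.06 times higher in B. The only pair of half-sites among the 9 promoters, shown above, was that of *Rarb*.

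The third receptor gene, *Rarg*, had 14.4 ± 6.14 FPKM (SD, n = 2). *Rara* gave between 55.8% and 71.7% of the summed FPKM of *Rara*, *Rarb* and *Rarg*, and *Rarb* gave 3.33% (A1), 3.37% (A2), 8.28% (B1) and 7.84% (B2). The order *Rara*, *Rarg*, *Rarb* was therefore the same in every library. Among their partners *Rxrb* gave between 92.2% and 95.5% of the summed FPKM of *Rxra*, *Rxrb* and *Rxrg*.

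*Cyp26b1* encodes an enzyme that degrades retinoic acid and lies on the minus strand of chromosome 4 from 116261796 to 116278615. Its values were 2.42 FPKM (A1), 2.48 (A2), 1.87 (B1) and 2.26 (B2). It was the only 1 of the 9 genes that was lower in replicate B, with a difference of -0.17 on the log2(FPKM + 1) scale. The FPKM of *Aldh1a2* was 24.1 and 24.3 times that of *Cyp26b1* in A1 and A2, and 38.0 and 163 times in B1 and B2. No gene listed in the tables overlapped any of the 9 genes.

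Replicates A and B were then compared gene by gene. To be counted as differing, a gene needed a mean of 1 FPKM or more, replicate means of log2(FPKM + 1) that lay at least 1 apart, and libraries of A that did not overlap those of B. On this scale the change of low genes is understated. *Adh1*, *Aldh1a1*, *Aldh1a2*, *Aldh1a3*, *Crabp1*, *Crabp2* and *Rarb* met these criteria, 7 of the 9 genes, and all 7 were higher in B. Over all 10481 genes that reached 1 FPKM, 6.15% met them in either direction, 4.58% as higher in B and 1.57% as lower in B. These values were known when the genes were chosen, so nothing is read from the excess. For *Rara* and *Cyp26b1* the libraries of A and B did not overlap either, but the differences were below 1. Without overlap were 60.1% of all genes tested, and 28.1% were so with B higher, as were 8 of the 9 genes.

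The difference between B and A was 3.69 on the log2 scale for *Adh1*, the largest of the 10481 genes tested. *Adh1* was below 1 FPKM in A1 and A2, so it was tested only because of its level in B. It was also chosen with these values known. *Adh1* kept the first place under 6 of 8 other settings. Among differences with B higher, it took place 2 when FPKM was averaged before the log and place 3 without B1. Each time it was behind the meningeal marker *Ptgds*, a prostaglandin synthase gene. Without B1, the choroid plexus markers *Otx2* (-4.59) and *Ttr* (-4.36) were lower in B by more than the 3.91 of *Adh1*. With all libraries the difference was 1.58 for *Crabp1*, 1.45 for *Aldh1a1*, 1.44 for *Aldh1a2*, 1.42 for *Rarb*, 1.28 for *Aldh1a3* and 1.17 for *Crabp2*. The median over all genes tested was -0.03. For *Rara* the difference was 0.56, higher than that of 90.1% of the genes tested.

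**Figure D3:**
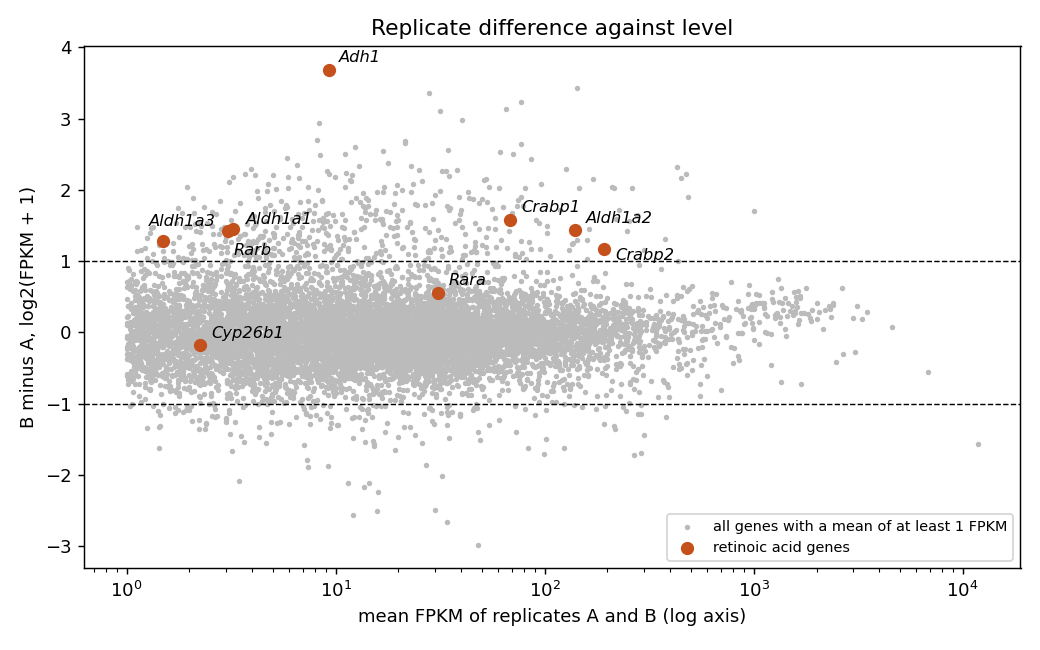
Difference between replicates B and A on the log2(FPKM + 1) scale against the mean FPKM on a log axis, for all 10481 genes of 1 FPKM or more and, in orange, the 9 retinoic acid genes. The dashed lines mark a difference of 1 in either direction, 7 of the 9 genes lie above the upper line, and *Adh1* is the highest point at 3.69.

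Part of this rests on B2. With B2 left out, *Adh1*, *Aldh1a1*, *Crabp1* and *Rarb* still met the criteria, 4 of the 9 genes against 5.50% of all genes tested. *Aldh1a2*, *Aldh1a3* and *Crabp2* no longer did, and their differences between B1 and replicate A were 0.26, 0.76 and 0.35. With any other library left out the same 7 genes were counted. The 9 genes thus fell into those that were higher than in A by at least 1 on the log2 scale in B1 and in B2 (*Adh1*, *Aldh1a1*, *Crabp1* and *Rarb*), those that were so only in B2 (*Aldh1a2*, *Aldh1a3* and *Crabp2*), and *Rara* and *Cyp26b1*, which were so in neither.

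The libraries of a replicate were compared with each other at the same limits of level and difference. Between B1 and B2, 3 of the 9 genes were that far apart, where 2.84% of all genes tested were and 2.11% were so with B2 higher. These were *Aldh1a2* with a difference of 2.36, *Crabp2* with 1.65 and *Aldh1a3* with 1.05, all higher in B2. *Crabp1* and *Aldh1a1* lay the other way, at -0.98 and -0.83, which is just short of the limit. *Rarb* differed by -0.07. Between A1 and A2 none of the 9 genes was counted, and 0.173% of all genes tested were.

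**Figure D4:**
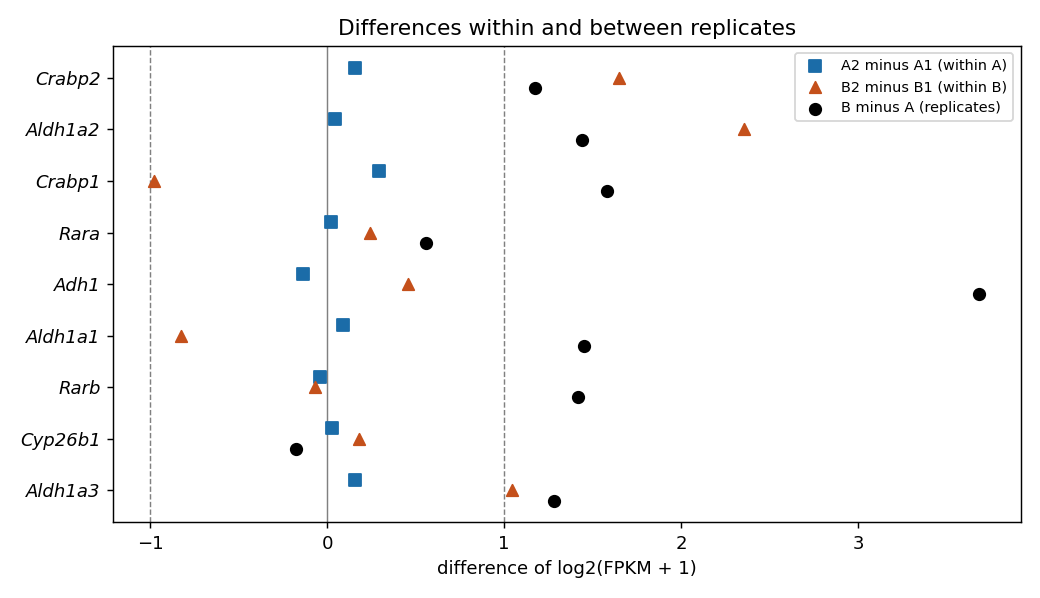
Differences of log2(FPKM + 1) for each of the 9 retinoic acid genes, between libraries A2 and A1 (squares), between B2 and B1 (triangles) and between replicates B and A (circles), with dashed lines at 1 and -1. For *Aldh1a2* and *Crabp2* the triangle lies to the right of the circle, at 2.36 and 1.65, whereas for *Rarb* the libraries of a replicate differed by 0.07 or less.

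Markers of meningeal and mesenchymal cells were higher in B as well. Their summed FPKM was 758 (A1), 729 (A2), 2780 (B1) and 3718 (B2), with *Col3a1* and *Col1a1*, fibrillar collagen genes, as the genes of highest mean. Of the 16 markers, 15 met the criteria and were higher in B, where 4.58% of all genes tested were. Without B2, 10 did so, where 5.5% of all genes tested met the criteria in either direction. Between B1 and B2, 13 of the 16 were higher in B2, where the median difference over all genes tested was -0.0052. Of the 16, 5 were apart by at least 1 on the log2 scale, where 2.84% of all genes tested were. *Ptgds* had 8.18 FPKM in B1 and 292 in B2. The summed FPKM of 8 choroid plexus markers, led by *Ttr* and *Otx2*, was lower in B, with 113 and 115 in A1 and A2 against 54.4 and 20.6 in B1 and B2, and *Otx2* was listed at 0 in B2. *Ttr* and *Otx2* were counted as lower in B, and *Aqp1* of the same list as higher. *Otx2* was counted through B2, since its difference between B1 and A was -0.43, against -1.59 for *Ttr* and 1.53 for *Aqp1*. Of 6 markers of the ventral forebrain, 3 were counted as lower in B and none as higher, namely *Dlx1* with a difference of -1.39, *Nkx2-1* with -1.08 and *Gsx2* with -1.02. Of these, *Dlx1* alone was lower than in A by at least 1 in B1 and in B2. *Nkx2-1* was at -0.93 in B1, and *Gsx2* was at -0.72 in B2. The progenitor markers *Fabp7* and *Hes5* differed by -1.56 and -1.15. The part of these cells in the levels of the retinoic acid genes was not tested. In RNA of a whole culture, more cells of a type and more RNA per cell cannot be told apart.

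The other genes of the pathway were taken from lists of uptake and storage, retinol and retinal interconversion, receptors and partners, clearance, and known targets. Of 47 genes on these lists, 39 were found, 27 had a mean of at least 1 FPKM and 6 met the criteria for a difference between A and B, 4 of them higher and 2 lower in B. These were 22.2% of the 27 genes, beside 6.15% of all genes tested. The median difference over the 39 genes was -0.0035, against 1.42 over the 9 genes above. These medians are not of like sets. Of the 39 genes, 12 had a mean below 1 FPKM, where differences on this scale are understated. All of the 9 genes reached 1 FPKM, and they were chosen with their values known. Without B2 the number of other pathway genes counted as differing was also 6, though not of the same genes. *Rarg* was then among them with a difference of 1.06.

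Of 9 genes for uptake, carriage and storage, 4 had a mean of at least 1 FPKM. *Stra6*, the membrane receptor for the retinol carrier of plasma, had 10.4 ± 1.08 FPKM (SD, n = 2), and its replicates overlapped. *Ttr*, which carries thyroid hormone and the retinol carrier, had 80.7 FPKM (A1), 82.6 (A2), 26.4 (B1) and 3.03 (B2). It was counted as lower in B, with a difference of -2.98 on the log2 scale, and it is also a marker of choroid plexus. *Ttr* overlaps *Mapre2* on the other strand, so that reads of these genes may not be told apart. *Lrat*, which stores retinol as esters, was at 0.0391 ± 0.0369 FPKM.

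Of 11 genes found for the interconversion of retinol and retinal, 7 had a mean of at least 1 FPKM and 2 were counted as differing. *Rdh10*, the main retinol dehydrogenase of the embryo, had 11.3 FPKM (A1), 10.3 (A2), 24.8 (B1) and 45.0 (B2). *Dhrs3*, which reduces retinal back to retinol, had 47.1 FPKM (A1), 50.8 (A2), 17.5 (B1) and 21.2 (B2). *Dhrs3* was counted as lower in B and *Rdh10* as higher, while *Dhrs4*, another retinal reductase, was higher in both libraries of B with a difference of 0.70. *Adh5*, an alcohol dehydrogenase found in all tissues, had 141 ± 18.0 FPKM, and *Rdh11* had 25.2 ± 1.92 FPKM. Neither was counted as differing. *Adh7*, an alcohol dehydrogenase that also accepts retinol, had 0.0582 (A1), 0.0801 (A2), 1.01 (B1) and 1.46 FPKM (B2), a mean below the limit of 1 FPKM.

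Of 11 genes found for receptors, partners and other binding proteins, 10 had a mean of at least 1 FPKM and none was counted as differing between A and B. Among the highest were *Fabp5*, a fatty acid binding protein that can also carry retinoic acid, with 855 ± 159 FPKM, and *Rxrb* with 54.4 ± 4.29 FPKM. *Cyp26a1*, a clearance enzyme that retinoic acid induces, had 0.0358 FPKM in A1 and 0.0495 in A2 and was listed at 0 in B1 and B2. *Cyp26b1* was therefore the higher of these Cyp26 genes in every library.

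Of 12 targets found, 10 had a mean of at least 1 FPKM, 3 were counted as higher and 1 as lower in B. Among the higher genes were *Tgm2*, a transglutaminase, with 2.09 FPKM (A1), 2.10 (A2), 8.20 (B1) and 37.1 (B2), and *Rarres2*, which encodes chemerin, with 12.4, 12.1, 45.2 and 45.8 FPKM in the same order. The lower gene was *Dhrs3*, given above as a retinal reductase. *Rarres2* overlaps *Lrrc61* on the other strand. *Meis2*, a homeobox gene, had 80.2 ± 13.6 FPKM and was not counted. The targets thus differed in both directions, and *Cyp26a1* and *Hoxb4* were below 0.1 FPKM in each library.

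**Figure D5:**
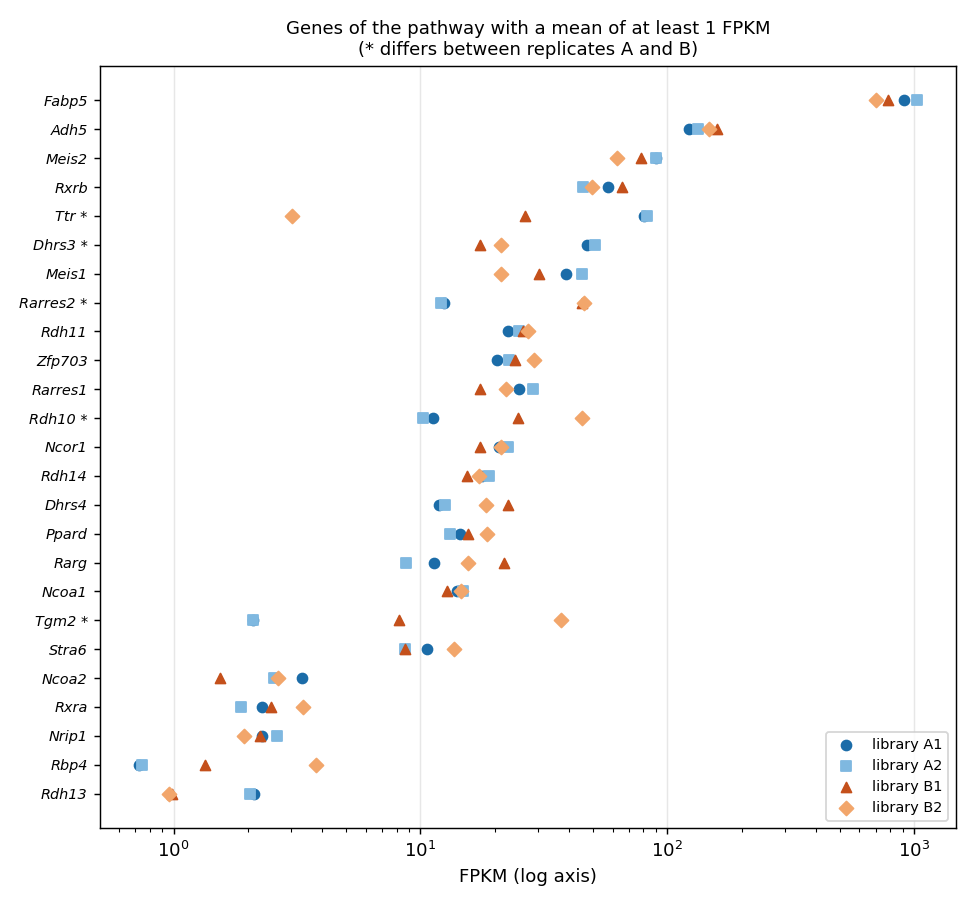
FPKM on a log axis of 25 of the 27 other pathway genes of at least 1 FPKM by the mean in the 4 RNA-seq libraries, ordered by the mean of replicates A and B, with an asterisk for the 5 of them counted as differing. *Ttr* goes down to 3.03 FPKM in B2, while *Tgm2* reaches 37.1 FPKM there.

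The genes with library profiles most like those of the 4 retinoic acid genes above a mean of 10 FPKM were found by the Euclidean distance between centred log2(FPKM + 1) values over the 4 libraries, among 6636 genes. Nearest to *Aldh1a2* were *Tagln2* (distance 0.34), *Bmp6* (0.35) and *Vamp8* (0.43), and *Tagln2* had 20.6, 23.8, 33.9 and 174 FPKM in A1, A2, B1 and B2. Nearest to *Crabp2* were *Oxct1* (0.18), *Sod3* (0.19) and again *Vamp8* (0.20). Nearest to *Crabp1* were the microRNA gene *Mir3120* (0.16), *Spry1* (0.21) and *Dusp6* (0.25), and *Spry1* had 7.41, 7.70, 33.1 and 18.6 FPKM in the same order. *Rara* lay nearest to *Pofut2*, *St3gal3* and *RGD1305350*, with distances between 0.03 and 0.05. These are descriptions over 4 libraries that come from 2 replicates.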

How the data were processed

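The 4 polyA RNA-seq libraries of rat cortical progenitors were grouped into replicates A and B by the sample labels, although column names in a list of the study may also mean that A1 goes with B1. STAR and rn6 were used by the authors for alignment. The tables have the layout of StringTie, which the submitters' processing notes name, while the study's methods give Rsubread and DESeq2 for this step, and versions were not given in the sources used here. FPKM, TPM and coverage were used as deposited, and the deposited coverage, a mean read depth over a gene, is not scaled to the library. Whether counting used strand was not given in the sources used here.

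Rows with 1 gene name were summed. The mean and SD are over replicates A and B, with the libraries of a replicate averaged first. For differences, log2(FPKM + 1) was averaged within a replicate. A single condition with 2 replicates allows no test between groups.

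The 9 genes, the lists and the rules were chosen with earlier results of these data known. By rule, all 9 genes were named, as well as pathway genes counted as differing, the 3 of highest mean on each list, the 2 highest genes of a marker list and the 3 most similar profiles. *Rarg*, *Lrat*, *Adh7*, *Hoxb4*, *Ptgds*, *Aqp1*, *Hes5*, *Sox2*, *Gsx2*, *Dhrs4*, *Rxra* and *Rxrg* were named after their values were seen. Of the list genes, 8 of 47 pathway genes and 1 progenitor marker were not analysed here, and the values of 2 further pathway genes are not reported here, although they are in the counts. The counting was run on simulated data, where 200 of 200 changed genes and 0 others were counted. How often the criteria err in these libraries was not tested. Promoters came from RefSeq (GRCr8), and proteins were not compared. Alternatives were other thresholds, a pseudocount of 0.1, TPM, scaled libraries and libraries left out. Python 3.11.15 with pandas 2.3.3, numpy 2.4.6 and matplotlib 3.10.9 was used.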

Additional observations from a re-analysis of the deposited data

Results flagged for a closer look

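For the 9 retinoic acid genes and the share of *Aldh1a2* in its family, 10 values in all, the gap of the highest or lowest RNA-seq library to its nearest neighbour was divided by the range of the 4 libraries. In 3 of them a single library stood apart by this measure. Among independent samples, which libraries of 1 replicate are not, about 1 value in 20 would stand apart by chance. *Aldh1a2* had 369 FPKM in B2, with a gap of 0.958 of the range. *Crabp2* had 426 FPKM in B2, with a gap of 0.892. The share of *Aldh1a2* in the summed FPKM of the Aldh1a genes was 89.5% in B1, with a gap of 0.901 below the others.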

How the results depend on the processing

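Of 107 alternatives, 10 moved a value beyond the spread between replicates (for log2 differences, between libraries of a replicate) or a count beyond 1.5 times, and no called difference turned its direction. With 2 replicates the mean without either one always lies within the SD, so these alternatives say nothing of stability, and the wide spread with B2 has the same effect for values without B2. At a limit of 5 FPKM, 5 of the 9 genes were left. The number of retinoic acid genes that differed between A and B ranged from 4 to 7 with a library left out, and B2 alone lowered it, because *Aldh1a2*, *Aldh1a3* and *Crabp2* were high in that library. Among the other pathway genes 11 differed at a log2 difference of 0.58, against 6, since that limit is lower. The other 7 changes were of single genes under TPM, a unit of another size, or under a pseudocount of 0.1, which raised the differences of *Adh1*, *Aldh1a1*, *Aldh1a3* and *Rarb*. The averaging of FPKM before the log and the meningeal count without B2 were added after seeing the data. No paired analysis was possible because there is 1 condition, and what the library numbers mark was not given in the sources used here.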
